A study of Mus musculus with 12 samples.

Results

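The superficial cornifying keratinocytes of the mouse esophagus are described here: the cells at the luminal end of the stratified squamous epithelium, in which the cornified envelope is assembled. They were picked by a rule on counts. After each mouse's 2 libraries were added up barcode by barcode, a barcode was kept when it showed 200 or more genes and had no more than 20% of its counts on mitochondrially encoded (mt-) genes. A kept cell was a member when Sprr3, Slpi, Crct1, Cnfn and Sprr1a together held at least 0.4% of its counts and 8 cycling genes (Top2a, Mki67, Cdk1, Cenpf, Ccna2, Nusap1, Aurkb and Cdc20) summed to fewer than 3 counts. The rule found 558 members among 4317 kept cells, and 40 further cells passed the marker share but not the cycling limit. The series profiled esophageal epithelium peeled from C57BL/6 mice by inDrop, a droplet method for single cells, in 12 libraries from 6 mice. The young group had 3 mice of at most 4 months and the aged group 3 mice of at least 18 months. The labels name no treatment or engineered allele in either group, the ages are given only as bounds, and each mouse number is taken here as 1 animal.

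As background, a stratified squamous epithelium renews from basal cells that hold on to the basement membrane through integrins and divide. Their daughters move upward, exchange the keratin pair Krt5 and Krt14 for Krt4 and Krt13 in the esophagus, and near the surface make small proline-rich proteins, which transglutaminases link into an envelope under the plasma membrane. Kallikrein proteases and their inhibitors then control how the flattened dead cells are shed, while lipids, defensins and cytokines of the IL-1 family are added to the barrier.

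Several libraries stand apart and limit what can be compared. Aged mouse 1 gave 5 members and young mouse 2 gave 17, so tests of age within members used the mice with 20 or more: aged mice 2 and 3 and young mice 1 and 3. Aged mouse 2 gave 203 members and differed from all other mice in how far the marker counts spread outside them. In that mouse 43.2% of kept cells had no count of any of the 5 markers, against 65.3% to 86.2% in the other mice. Of its 234 cycling cells, 120 (51.3%) carried a marker count, against 0.0% to 16.7% in the others. When members were called in each library alone, 68.6% of the cells called in either library of that mouse were called in both, against 83.3% to 100% elsewhere. Results that rest on this mouse are given with and without it. Between 88.1% and 97.8% of barcodes recurred in both libraries of the same mouse, and no 2 mice, each with its libraries pooled, shared more than 0.611%. Members held 17131 to 511805 counts per mouse, with medians of 1619 to 3156 counts per cell.

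The members' shares of kept cells were 2.81% (5 of 178), 16.2% (203 of 1250) and 10.9% (66 of 604) in aged mice 1, 2 and 3. They were 17.2% (176 of 1026), 3.13% (17 of 544) and 12.7% (91 of 715) in young mice 1, 2 and 3. Each age therefore had 1 mouse near 3% and 2 mice above 10%, and the groups overlapped fully. The Wilson 95% interval of the lowest share ran from 1.21% to 6.41% and that of the highest from 14.97% to 19.58%, for counting error only. The mean was 9.99% ± 6.76 (SD, n = 3) in aged and 11% ± 7.17 (SD, n = 3) in young mice, a difference of -1.01 percentage points (exact two-sided permutation test, p = 0.7, where 0.1 is the smallest possible). Leaving out single mice moved that difference between -4.95 and 2.58 points, so no direction can be given. The 5 members closest to the threshold had marker shares of 0.4005% to 0.4084%, and the 5 cells just below it 0.3947% to 0.3955%.

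**Figure D1:**
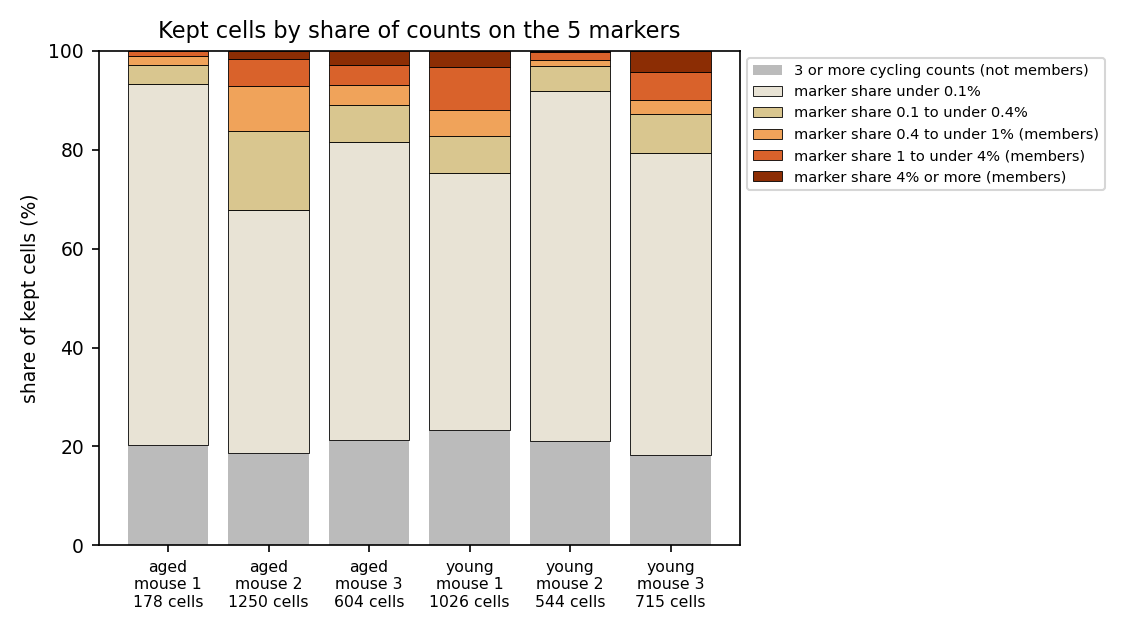
Share of kept cells (y axis, %) in each mouse (x axis, with its number of kept cells), split by the share of counts on the 5 markers, with cycling cells in grey at the base. The 3 darkest bands are members: aged mouse 1 (2.81%) and young mouse 2 (3.13%) have thin tops, and aged mouse 2 has a wide band just outside the threshold.

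The 5 markers chose the members, so their levels are a description without a test. Levels are CPM, the gene's count scaled to a total of 1000000 counts over the members of a mouse. Sprr3, a small proline-rich envelope protein, was at 1576, 7660 and 9484 CPM in aged mice 1 to 3 and at 9978, 6326 and 12213 CPM in young mice 1 to 3. Cnfn (cornifelin, an envelope component) was at 5487, 6625 and 8436 CPM in the aged and 8144, 7273 and 9554 CPM in the young mice. Slpi, a secreted inhibitor of serine proteases, was at 992, 2619 and 2624 CPM in the aged and 2413, 1168 and 3338 CPM in the young mice. The 2 mice with few members, aged mouse 1 and young mouse 2, held the lowest Slpi values, and the ages overlapped for all 3 genes. Crct1, a cysteine-rich gene of the epidermal differentiation complex, averaged 2208 CPM ± 825 (SD, n = 6), and Sprr1a, an envelope precursor, 1404 CPM ± 777. In the other kept cells these 5 genes averaged 29.4 CPM (Slpi) to 209.6 CPM (Cnfn). Aged mouse 2 had the highest value in the other cells for each of the 5, for example 137.7 CPM of Slpi against 0.886 to 19.96 CPM elsewhere.

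The markers were not spread evenly over the members. Of all marker counts in members, 39.2% were Sprr3, 32.9% Cnfn, 10.95% Slpi, 10.3% Crct1 and 6.63% Sprr1a, as shares of counts not corrected for transcript length. Every marker was detected in 217 members (38.9%), and 12 members had a count of a single marker. Members were divided by marker share into 220 cells at 0.4 to under 1%, 234 at 1 to under 4% and 104 at 4% or more. All 5 markers were seen in 5.45% of the first band, 45.7% of the second and 94.2% of the third, where the median depth was 1626, 2494 and 2908 counts. Cnfn made up 48.4% of the marker counts in the lowest band and 28.2% in the highest, while Slpi went from 4.73% to 14.8%.

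The label was checked against keratinocyte genes outside the rule. All 16 basal markers were lower in members than in the other cells of the same mouse in all 6 mice. Of all 8693 genes at 10 CPM or more, 36.5% were lower and 6.63% higher in all 6 mice. Cells just outside the threshold, at a marker share of 0.1 to under 0.4%, had 0.476% to 1.14% of counts on basal markers. The share was 0.228% to 0.818% in the first member band (mice with 5 or more cells) and 1.53% to 1.92% at a marker share under 0.1%. Krt5 averaged 318 CPM ± 423 in members and 5457 CPM ± 746 in the other cells, and Krt14 131 CPM ± 159 and 2626 CPM ± 599 (SD, n = 6). Aged mouse 2 held the highest member values of both (Krt5 1154 CPM, Krt14 439 CPM), and its summed basal markers were 4812 CPM against 1226 to 2003 CPM in the members of the other mice. Krt4, the suprabasal esophageal keratin, was the opposite: 71709 CPM ± 5769 in members and 18476 CPM ± 4442 elsewhere. Its partner Krt13 was at 28685 CPM ± 4275 against 10025 CPM ± 1733. Of 8 suprabasal keratins at 10 CPM or more, 3 (Krt4, Krt13 and Krt23) were higher in all 6 mice and 2 lower, Krt6a at 79.7 against 314.5 CPM and Krt17 at 5.60 against 44.8 CPM. Markers of other cell types were near 0 in members, with sums of 0.0 to 114 CPM for 8 fibroblast genes, 0.0 to 67.9 CPM for 10 immune genes and at most 5.90 CPM for each of the endothelial and muscle, red cell and columnar lists. Flg (filaggrin), a defining gene of the skin's horny layer, had 6 counts in the members, all in aged mouse 2, and Ivl (involucrin) had 16 counts over 4 mice. Low basal and high Krt4 and Krt13 levels set members apart from basal cells. These levels do not place members at the surface, because daughters moving upward make that keratin exchange. Of the 3759 other cells, 2462 had a marker share under 0.1% and 884 were cycling. With cells thinned to equal depth, Krt14 was detected in 31.8% of cells at 0.1 to under 0.4% and 32.5% of the first member band. For Col17a1, of the basement membrane side, it was 17.9% and 14.3%. Whether members lie above other suprabasal cells was not tested.

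Upstream sequence of some of these genes is printed because Sprr3, Sprr1a and Rptn lie in 1 cluster on chromosome 3, while Slpi and Cnfn lie elsewhere. Sprr3, Sprr1a, Slpi and Cnfn are markers of the rule, which sets their high level in the cells with most marker counts. Rptn, outside the rule, was also high in those cells. Each run is the 250 bases before the gene's start, from RefSeq on GRCm38.p6, written 5′ to 3′ on the gene's strand. Capitals mark the letters TGANTCA (the AP-1 motif), TATAAA (a core promoter box) and AACNNGTT (the grainyhead motif), searched on both strands. The windows are chr3:92458721-92458970 (minus strand) for Sprr3, chr3:92485882-92486131 (minus) for Sprr1a, chr3:93393449-93393698 (plus) for Rptn, chr2:164356508-164356757 (minus) for Slpi and chr7:25369725-25369974 (minus) for Cnfn.
Sprr3: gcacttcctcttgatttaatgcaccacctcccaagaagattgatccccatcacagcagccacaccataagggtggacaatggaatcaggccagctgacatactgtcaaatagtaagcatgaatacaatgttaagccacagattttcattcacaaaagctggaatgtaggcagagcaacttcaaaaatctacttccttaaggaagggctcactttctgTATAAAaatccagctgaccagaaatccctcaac
Sprr1a: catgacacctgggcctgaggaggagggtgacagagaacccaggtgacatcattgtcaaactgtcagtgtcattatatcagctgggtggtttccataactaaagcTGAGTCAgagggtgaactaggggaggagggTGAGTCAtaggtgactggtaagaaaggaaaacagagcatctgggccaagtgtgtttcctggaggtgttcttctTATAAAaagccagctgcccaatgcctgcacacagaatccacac
Rptn: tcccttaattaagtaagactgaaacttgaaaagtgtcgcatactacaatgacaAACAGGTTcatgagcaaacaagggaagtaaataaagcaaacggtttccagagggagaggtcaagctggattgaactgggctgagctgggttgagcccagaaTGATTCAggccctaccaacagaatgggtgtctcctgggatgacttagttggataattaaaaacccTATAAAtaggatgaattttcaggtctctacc
Slpi: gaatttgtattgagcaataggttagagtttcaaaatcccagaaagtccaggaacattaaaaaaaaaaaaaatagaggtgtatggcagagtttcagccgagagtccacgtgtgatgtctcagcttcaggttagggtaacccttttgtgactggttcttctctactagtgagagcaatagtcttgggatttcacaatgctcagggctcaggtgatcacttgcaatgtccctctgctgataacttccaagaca
Cnfn: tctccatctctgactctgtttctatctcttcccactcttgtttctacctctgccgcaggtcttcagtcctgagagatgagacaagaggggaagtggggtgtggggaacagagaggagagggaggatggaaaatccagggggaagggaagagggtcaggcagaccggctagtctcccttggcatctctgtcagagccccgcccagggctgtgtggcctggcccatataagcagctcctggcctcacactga
The 3 chromosome 3 genes each had TATAAA, starting at -33 in Sprr3, -43 in Sprr1a and -31 in Rptn, counted back from the gene's start. Sprr1a had TGANTCA at -146 and -116 and Rptn at -96, and Rptn also had AACNNGTT at -197. Slpi and Cnfn had none of these letters in the window. Of the 5 markers and the 30 genes that follow them in the comparison below, 25 had an entry in the promoter table. TGANTCA was in 7 of these 25 (28.0%) and in 6.87% of all 27025 promoters of the same length. TATAAA was in 8 (32.0%) against 12.97%, and AACNNGTT in 0 against 3.63%. The letters CACCC (KLF motif) were in 15 (60.0%) against 51.3%, and AGGAAG (ETS motif) in 13 (52.0%) against 29.2%, on either strand. A match is a description of letters and not of binding.

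Beyond the rule, members differed from the other kept cells in the barrier functions listed next. Because every gene of these cells entered the choice, the differences are given as means over mice of the log2 ratio, with 10 CPM added to both levels, and without a test. Of 8693 genes at 10 CPM or more, 576 (6.63%) were higher in members in all 6 mice and 3173 (36.5%) were lower in all 6, and the median log2 difference was -0.65. Members of aged mouse 1 and young mouse 2 held only 17131 and 45372 counts. A gene near 10 CPM can be at 0 in them by depth alone and then scores as lower. Depth therefore raises the 36.5% and reduces the 6.63%, by an amount that was not tested.

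**Figure D2:**
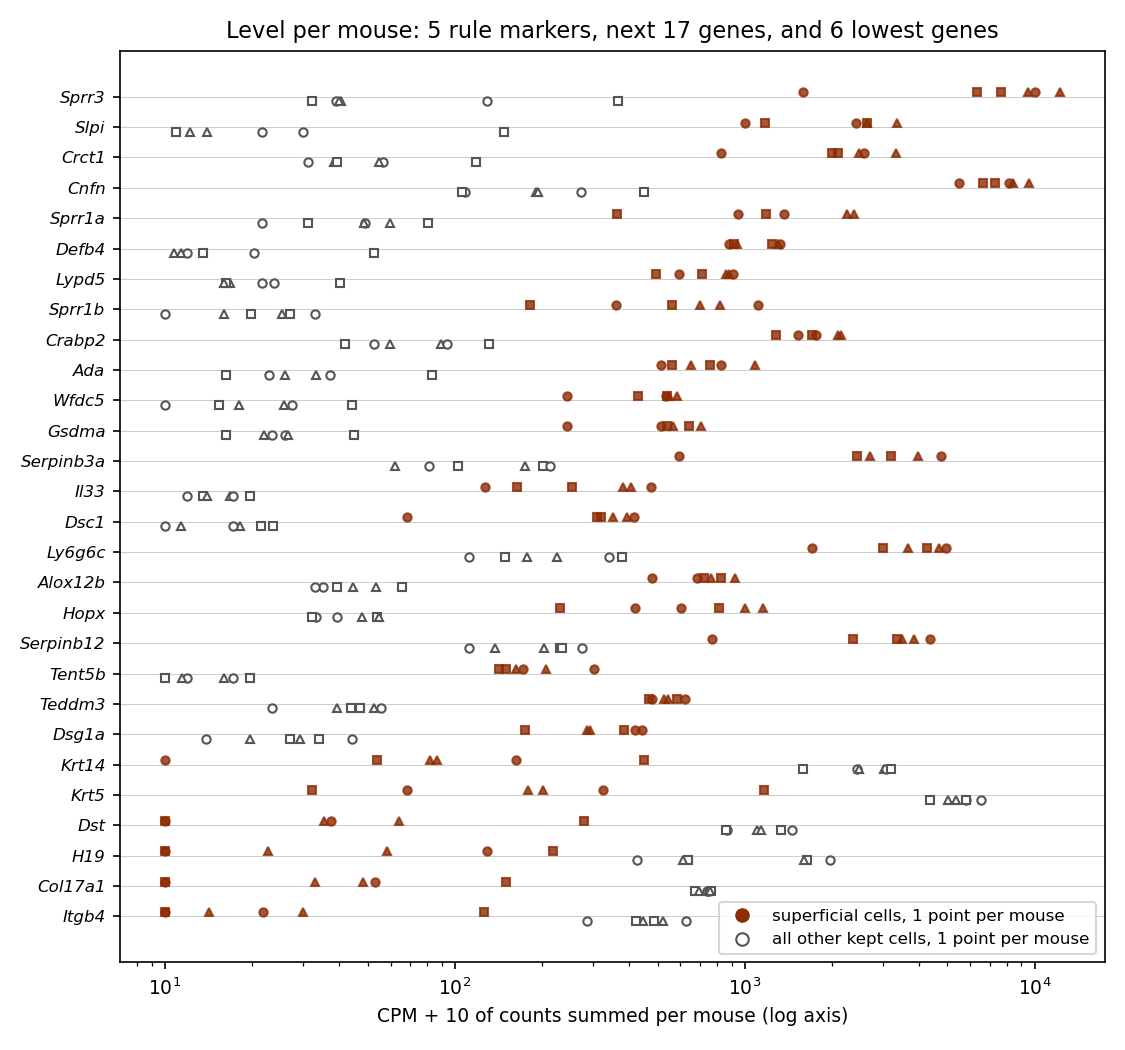
Level of each gene (x axis, CPM + 10 on a log axis) in superficial cells (filled) and in all other kept cells of the same mouse (open), for the 5 rule markers, the genes with the largest differences next to them and the lowest genes; circle, square and triangle are mice 1, 2 and 3 of each age. Filled and open points separate for every gene from Sprr3 to Dsg1a, and the order is turned for Krt14 and the genes below it.

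Host defence genes included the gene with the largest difference outside the rule. Defb4, a beta-defensin that kills microbes, was at 876, 909 and 930 CPM in the members of aged mice 1 to 3 and at 1311, 1234 and 1292 CPM in those of young mice 1 to 3. In the other cells it averaged 10.1 CPM, so the mean log2 difference was 6.03 (4.12 to 6.84 over mice). After each cell was thinned to 1000 counts, Defb4 was seen in 35.7% of 530 members and 1.28% of 3525 other cells, against 45.2% and 2.05% before thinning; thinning left out 19 aged and 9 young members and 149 aged and 85 young other cells. Il33, an alarm cytokine, averaged 291 CPM ± 140 in members and 5.51 CPM elsewhere (log2 4.14). Of 11 antimicrobial and IL-1 family genes at 10 CPM or more, 4 were higher in all 6 mice and 1 lower, with Il1f9 (IL-36 gamma) at 102 CPM against 11.7 CPM, higher in 5 mice.

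Envelope precursors were higher on the whole, though few had counts in every mouse. Of 19 such genes at 10 CPM or more, 6 were higher in all 6 mice and 0 lower, with a median log2 difference of 1.65. Krtdap, a secreted keratinocyte protein, was at 23640 CPM ± 3601 against 4023 CPM, and Dmkn (dermokine) at 6771 CPM ± 1114 against 2251 CPM. Sprr1b averaged 613 CPM ± 332 and differed by 4.72 on the log2 scale. The plakin scaffolds of the envelope, Ppl and Evpl, differed by 2.31 and 1.65. Lor (loricrin) was at 0.0, 261.5 and 271.7 CPM in the aged and 345.8, 220.4 and 339.5 CPM in the young mice, against 0.0 to 26.3 CPM in other cells, and the 0 was in the mouse with 5 members. The linking enzyme Tgm3 averaged 4945 CPM ± 1013 against 1359 CPM, while Tgm1 was at 262 CPM ± 144 against 112 CPM and higher in 5 of 6 mice. Near-identical copies exist within the Sprr2, Lce3 and Serpinb3 families, between which reads could have been divided, so those levels are uncertain.

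The epidermal differentiation complex is the stretch of chromosome 3 that holds many of these genes. Its listed genes with a count here ran from S100a1 at chr3:90511034 to S100a10, which ends at chr3:93564645 (GRCm38.p6), and 50 of 101 had a count in kept cells. Of the 27 at 10 CPM or more, 7 were higher in members in all 6 mice and 3 lower. The 7 were S100a14, S100a16, Pglyrp4, Sprr1b and the rule genes Sprr3, Sprr1a and Crct1. S100a14 and S100a16 differed by 1.04 and 1.22 on the log2 scale, whereas S100a6, at the same end of the complex, was at 309 CPM in members and 2378 CPM elsewhere. S100a10 was also lower (411 against 914 CPM), as was S100a13. The stretch from Sprr1b to Sprr1a (chr3:92436808-92485881) held 3 consecutive genes with a count that each differed by more than 4 on the log2 scale. Sprr3 and Sprr1a chose the cells, so their differences were set by the rule, and only Sprr1b (4.72) lies outside it.

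Proteases and their inhibitors were often high. Of 36 at 10 CPM or more, 16 were higher in all 6 mice and 3 lower, with a median log2 difference of 1.55. Spink5, whose product LEKTI restrains kallikreins, was at 2738 CPM ± 491 in members and 255 CPM ± 48.5 elsewhere. Klk10, a kallikrein family member, was at 2734 CPM ± 1046 against 384 CPM, and Klk13 at 480 CPM ± 222 against 42.2 CPM. Inhibitors of the clade B serpins were high too: Serpinb12 at 3019 CPM ± 1290 against 189 CPM and Serpinb3a at 2932 CPM ± 1430 against 129 CPM. Asprv1, a skin aspartic protease, differed by 3.17 and the transmembrane protease Tmprss11d by 3.39. Wfdc2, which shares the WAP domain of Slpi, was among the 10 genes most reduced in members.

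Junction genes differed by family member. Of 24 desmosome and tight junction genes, 11 were higher in all 6 mice and 4 lower. The desmosomal cadherins of upper layers, Dsc1 (299 CPM ± 125 against 6.97 CPM) and Dsg1a (323 CPM ± 101 against 18.0 CPM), were high. Dsg3, the desmoglein of lower layers, was at 281 CPM ± 71.5 against 271 CPM and higher in 2 of 6 mice. Gjb2, the gap junction protein connexin 26, differed by 2.99. The basement membrane side was low: Col17a1, Itgb4 and Dst, parts of the hemidesmosome, differed by -4.47, -4.35 and -4.92.

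Genes of the lipid barrier had the largest share higher in all 6 mice of any list outside the rule genes, 19 of 24, and 0 were lower. Alox12b and Aloxe3, lipoxygenases that act in series on envelope ceramides, were at 724 CPM ± 152 and 105 CPM ± 42.7 against 35.1 and 4.03 CPM. Elovl4, which extends very long fatty acids, was at 1226, 1546 and 1618 CPM in the aged and 1536, 1256 and 1181 CPM in the young mice, against 92.6 to 150.4 CPM in other cells. Its log2 difference of 3.41 had the narrow range of 3.28 to 3.59 over mice. The ceramide synthase Cers3 and the lipid transporter Abca12 differed by 1.70 and 2.28.

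Regulators and housekeeping genes gave a mixed picture. Of 27 transcription factors of differentiation, 9 were higher in all 6 mice and 4 lower. Hopx, an atypical homeodomain protein, was at 694 CPM ± 351 against 33.5 CPM, Grhl3 and Grhl1 of the grainyhead family differed by 1.82 and 1.71, and Klf4 by 0.87, while Trp63, the basal factor p63, differed by -3.18. Crabp2, which carries retinoic acid, was at 1745 CPM ± 331 against 68.2 CPM, and 9 of 24 retinoid and xenobiotic genes were higher and 5 lower, Adh7 among them at 724 against 2186 CPM. The metallothioneins split, with Mt4 at 4897 CPM ± 1613 against 2463 CPM and Mt1 at 572 CPM ± 194 against 2691 CPM. Lower in all 6 mice were 56 of 73 cytosolic ribosomal protein genes (76.7%) and 12 of 21 immediate early and stress genes (57.1%), with 0 and 2 higher. For nuclear subunits of oxidative phosphorylation it was 23 of 64 (35.9%), near the 36.5% of all genes, a share that depth affects as said above. Fos was at 2328 CPM ± 804 against 5538 CPM ± 890. At 1000 thinned counts, members had a median of 508 to 539 genes per mouse and the other cells 580 to 607.

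Within the members, the genes separated by how much of the cell's output the markers took. The bands use the rule's own measure, so their differences are described only. Defb4 averaged 46.1, 671 and 3142 CPM in the bands at 0.4 to under 1%, 1 to under 4% and 4% or more. Il33 went through 54.6, 218 and 915 CPM and Hopx through 227, 583 and 1993 CPM. Rptn (repetin), an S100 fused-type envelope protein, was at 6.56, 42.0 and 797 CPM, so it was highest by far in the top band, and Lor was at 62.9, 202 and 715 CPM. Spink5 was at 1296, 2428 and 4939 CPM. The abundant genes differed less: Krt4 was at 63540, 75437 and 85148 CPM, Krtdap at 19995, 22523 and 25541 CPM, and Grhl3 was flat at 962, 919 and 889 CPM. In the other direction, Mt1 was at 1056, 528 and 98.3 CPM, and Mt4 was highest in the lowest member band, at 6377, 4554 and 1612 CPM. Krt5 was at 727, 215 and 68.4 CPM.

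**Figure D3:**
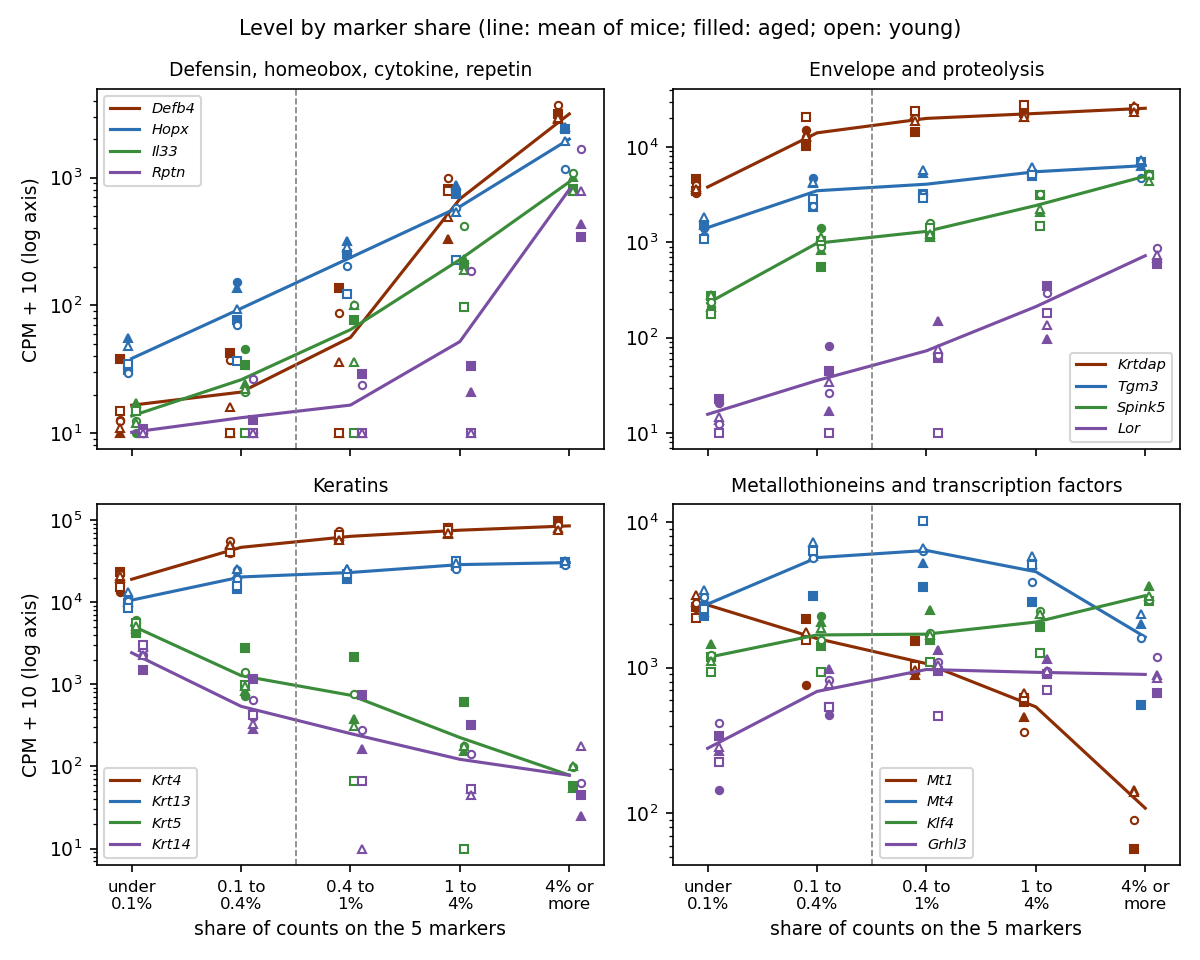
Level (y axis, CPM + 10 on a log axis) by the share of counts on the 5 markers (x axis); lines are means of mice with 5 or more cells in a band, points are mice (circle, square and triangle for mice 1, 2 and 3; filled aged, open young) and the dashed line is the membership threshold. Defb4, Il33, Hopx and Rptn climb across the member bands, Krt4 and Krt13 are nearly level, and Mt1, Krt5 and Krt14 descend.

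The same order appeared cell by cell. Spearman's rho between a gene's scaled count and the marker share was averaged over the 4 mice with 20 or more members (536 cells) for 1400 genes seen in 20% or more of members. These are across cells of shared libraries whose depth also varies, and no p is given. Outside the rule, the highest mean rho was that of Defb4 (0.72), followed by Serpinb12 (0.66), Hopx (0.64), Serpinb3a (0.63), Klk10 (0.61), Ly6g6c (0.60), Spink5 (0.58), Lypd5 (0.54), Asprv1 (0.53) and Il33 (0.53). The most negative was Atp1b3 (-0.57), a sodium pump subunit, followed by mt-Cytb (-0.56), mt-Nd4 (-0.54), mt-Nd2 (-0.52), mt-Nd1 (-0.52), the ribosomal gene Rplp1 (-0.52), Mt4 (-0.50), Mt1 (-0.48), Eef1a1 (-0.48) and mt-Co1 (-0.46). For Defb4 the 4 mice ranged from 0.58 in aged mouse 2 to 0.80 in young mouse 3. Ribosomal protein counts made up 4.06% to 5.31% of counts in the lowest member band and 2.05% to 2.53% in the highest, among mice with 5 or more cells there.

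The study's comparison of ages was then made within the members, on counts summed per mouse. Few genes passed. edgeR's quasi-likelihood test with Benjamini-Hochberg adjustment tested 4969 genes in 2 aged and 2 young mice and called 4 (0.0805%), 2 higher and 2 lower in aged (0.0402% each). DESeq2 called 3 of them (0.0604%). At an unadjusted p under 0.05 there were 283 genes (5.70%). The mice were the replicates. In bulk sums like these, fewer cells of a kind within the members and less RNA of a gene per cell cannot be told apart.

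Rptn was lower in aged members. Aged mice 1 to 3 had 0.0, 72.8 and 123.1 CPM, and young mice 1 to 3 had 453.3, 154.3 and 291.0 CPM. All 3 young values lay above all 3 aged ones, a separation that 6.13% of 3833 genes showed in this direction over 6 mice. The log2 difference was -1.99 (SE 0.30, edgeR quasi-likelihood adjusted p = 0.0037, 2 against 2 mice). In the band at 4% or more it was 330 and 421 CPM in aged mice 2 and 3 and 1655 and 782 CPM in young mice 1 and 3. All 102 counts of young mouse 3 lay in that band, and 61 of them came from 1 cell. The 782 CPM of young mouse 3 thus rests mostly on that cell, and whether the order within the band holds without top cells was not tested. Few cells gave these counts: 15 of 203, 8 of 66, 35 of 176 and 11 of 91 members in those 4 mice had any. With the marker threshold at 0.2% the edgeR adjusted p was 0.077, and the call was kept under 16 of 19 alternatives (adjusted p of 2.07e-08 to 0.999). A single cell gave 59.8% of young mouse 3's counts. Leaving out the top cell of every mouse gave 55.6 and 82.8 CPM (aged mice 2 and 3) and 390.7 and 118.6 CPM (young mice 1 and 3). In young mouse 2 all 7 counts came from 1 cell, so that its value without the top cell was 0.0 CPM and the separation over 6 mice rests on that cell.

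Krt6a, a keratin of stress and repair, was also lower, with less support. It was at 0.0, 45.2 and 42.4 CPM in aged and 162.2, 0.0 and 228.2 CPM in young mice, so the young mouse with 17 members was at 0 and the groups of 3 overlapped. The log2 difference was -2.10 (SE 0.34, edgeR adjusted p = 0.0063). Among the 4 tested mice the ages overlapped at a marker share of 0.4 to under 1%. Aged mice 2 and 3 had 47.2 and 128.5 CPM there, and young mice 1 and 3 had 215.7 and 65.8 CPM. They did not overlap at 1 to under 4% (47.2 and 0.0 against 175.6 and 312.5 CPM) or at 4% or more (35.4 and 0.0 against 62.6 and 229.9 CPM). In young mouse 3, 29 of 80 counts came from 1 cell. In the other cells Krt6a was at 82.9 to 386.4 CPM in aged and 294.6 to 617.2 CPM in young mice, with a log2 difference of -0.76 (edgeR adjusted p = 0.88), and the interaction of age with cell class did not pass (-1.19, SE 0.38, adjusted p = 0.30). With the marker threshold at 0.2% the difference was -0.82 (edgeR adjusted p = 0.96), and at that threshold without aged mouse 2 it was -0.23. The call was kept under 16 of 19 alternatives (edgeR or DESeq2 adjusted p of 1.06e-05 to 0.999). Krt6b is a close copy, so the level is uncertain.

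Fosb, a subunit of the AP-1 transcription factor, was higher in aged members. It was at 408.6, 987.2 and 849.1 CPM in aged and 398.6, 154.3 and 330.9 CPM in young mice. The aged mouse with 5 members was close to young mouse 1, and the others were well apart. The log2 difference was 1.35 (SE 0.23, edgeR adjusted p = 0.0081). Fosb was higher in aged mice 2 and 3 than in young mice 1 and 3 in each member band: 1252 and 1054 against 487 and 368 CPM, then 929 and 811 against 464 and 410 CPM, then 472 and 662 against 134 and 222 CPM. In the other cells the difference was 0.88 (edgeR adjusted p = 0.085), and the interaction of 0.43 (SE 0.25, adjusted p = 1.0) did not pass. Without young mouse 3 the call was lost (edgeR adjusted p = 0.38), and it was kept under 16 of 19 alternatives (adjusted p of 2.22e-05 to 0.999).

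Hoxc8, a homeobox gene of positional identity, differed in and outside the members alike. It was at 175.1, 226.2 and 326.9 CPM in aged and 78.2, 66.1 and 114.1 CPM in young members, with no overlap over 6 mice, as for 4.33% of genes in that direction. The log2 difference was 1.54 (SE 0.29, edgeR adjusted p = 0.024). In the other cells it was at 165.8, 259.4 and 258.1 CPM in aged and 81.9, 73.5 and 87.3 CPM in young mice, a difference of 1.68 (edgeR adjusted p = 0.00012), where 0.116% of 9509 genes were called. The interaction was -0.19 (SE 0.32, adjusted p = 1.0). DESeq2 gave the same direction in members without a call (adjusted p = 0.16), and without young mouse 1 the edgeR adjusted p was 0.165. The call was kept under 13 of 19 alternatives (adjusted p of 0.000438 to 0.999).

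**Figure D4:**
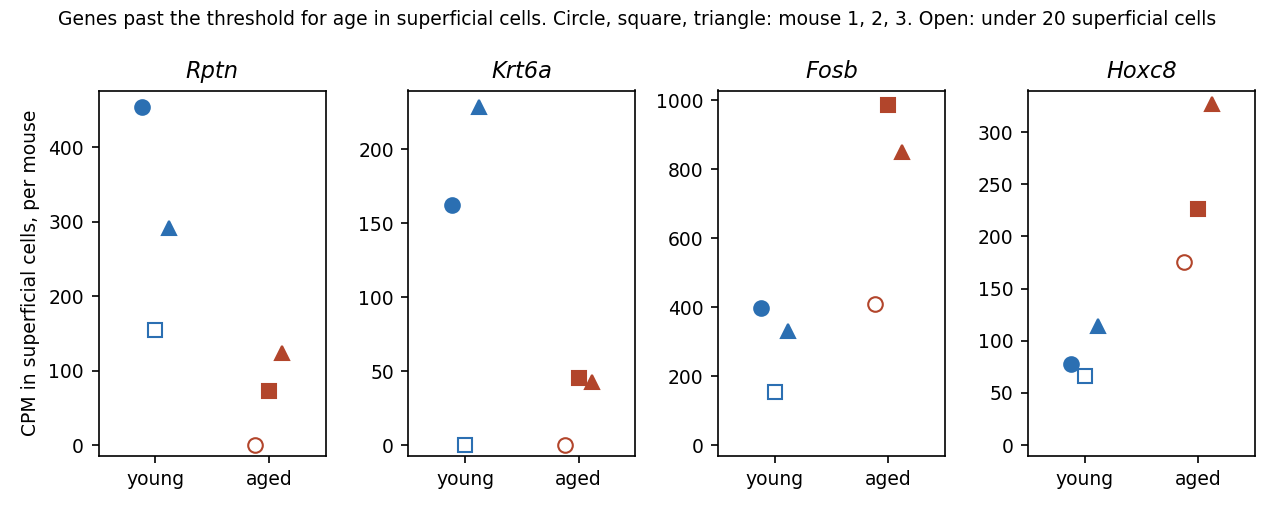
CPM in superficial cells (y axis, 1 point per mouse) in young and aged mice (x axis) for the 4 genes past the threshold; circle, square and triangle are mice 1, 2 and 3, and open symbols have fewer than 20 members. Rptn, Fosb and Hoxc8 separate the ages over all 6 mice, and Krt6a does not because young mouse 2 is at 0. The separation rests on 1 cell of young mouse 2 for Rptn and on 1 cell of aged mouse 1 for Fosb and for Hoxc8.

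Genes that did not pass but kept the tested aged mice apart from the young ones are listed by value, with edgeR log2 differences and adjusted p. Such a separation of 2 against 2 was seen in 34.1% of genes. Higher in aged by value were Pdk4, a kinase that shuts pyruvate off from oxidation (1.78, adjusted p = 0.13), the thrombin receptor Thbd (1.28, 0.13), Smc4 of condensin (1.64, 0.14), Csrp1 (1.67, 0.17), the BMP antagonist Nbl1 (1.94, 0.17), the cyclin Ccnd2 (2.50, 0.21), Cyp2c65 (1.30, 0.21) and the stress factor Atf3 (1.09, 0.21). Atf3 was at 467.0, 354.0 and 208.0 CPM in aged and 136.8, 154.3 and 139.8 CPM in young mice, without overlap. Lower by value were the IL-36 genes Il1f6 (-2.79, adjusted p = 0.082) and Il1f8 (-1.15, 0.25), Nebl (-1.45, 0.13), the epidermal keratin Krt10 (-1.50, 0.31), Sprr1b (-1.20, 0.44), Daam1 (-0.80, 0.44), Serpinb3a (-0.74, 0.44) and Sec22b (-1.25, 0.44). Il1f8 was at 0.0, 76.7 and 106.1 CPM in aged and 175.8, 220.4 and 228.2 CPM in young mice.

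The 5 rule markers had log2 age differences of -0.11 (Slpi) to -0.38 (Crct1), given as a description since they chose the cells. The abundant keratins did not pass: Krt4 differed by -0.03 (SE 0.27) and Krt13 by -0.06 (SE 0.25). Beside all these values, 60.0%, 55.7% and 36.4% of members of aged mice 1 to 3 had a marker share under 1%, against 30.11%, 41.2% and 21.98% in young mice 1 to 3. The ages overlapped over 6 mice but not over the 4 tested ones. The part of this share in the age differences was not tested, other than by the values within bands given above for Rptn, Krt6a and Fosb.

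By function, lists are given as counts and medians of the edgeR log2 difference, beside a median of 0.01 over all genes tested (2527 of 4969 above 0). Of 15 tested envelope precursors, 2 were above 0 and 1, Rptn, was called; the median was -0.51. The 10 antimicrobial and IL-1 family genes had a median of -0.41 with 0 called. Defb4 differed by -0.48 (SE 0.22, edgeR adjusted p = 0.83), its 3 aged values lying below its 3 young ones. Such a separation was seen in 6.13% of 3833 genes in this direction. The 19 immediate early and stress genes had a median of 0.30, 17 were above 0 and 1, Fosb, was called. The 52 ribosomal protein genes had a median of 0.22 with 46 above 0, the 60 nuclear oxidative phosphorylation genes 0.09 with 40 above 0, and the 23 lipid barrier genes -0.07; none of these 3 lists had a call.

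Basal markers were above 0 mostly through aged mouse 2. All 9 tested were above 0, with a median of 1.25 and 0 called, and without aged mouse 2 the median was -0.33. Krt5 was at 58.4, 1154 and 191 CPM in aged and 315, 22.04 and 168 CPM in young members, so only aged mouse 2 exceeded the young mice. Itga6, a basal integrin, did not overlap, at 116.7, 133.7 and 55.2 CPM in aged and 19.5, 0.0 and 42.8 CPM in young members. Over 6 mice 4.33% of 3833 genes were higher in aged without overlap. The 116.7 and 0.0 CPM come from aged mouse 1 (5 members, 17131 counts) and young mouse 2 (17 members, 45372 counts). The log2 difference of Itga6 was 1.53 (edgeR adjusted p = 0.34) over 4 mice. Over all 6 mice, which include these 2 and called 7 of 3833 genes (0.183%), it was 1.51 (edgeR adjusted p = 0.0014). Fibroblast marker sums in those members were 58.4, 114 and 8.49 CPM in aged and 23.4, 0.0 and 8.56 CPM in young mice.

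Counts on mt- genes, which come from the mitochondrial genome, were a larger share in aged members. The share was 6.45%, 6.09% and 4.64% in aged mice 1 to 3 and 3.75%, 3.32% and 3.495% in young mice 1 to 3. Every aged mouse lay above every young mouse. The means were 5.73% ± 0.956 and 3.52% ± 0.217 (SD, n = 3 each), a difference of 2.20 points (exact two-sided permutation test, p = 0.1, the smallest that 3 against 3 can give). With the 4 mice of 20 or more members the difference was 1.74 points (exact permutation test, p = 0.333, the smallest that 2 against 2 can give). Without aged mouse 2 it was 1.02 points and without aged mouse 3 it was 2.46, with 1 aged mouse left. From the first to the last member band the share was lower in each of the 4 mice with 5 or more cells in both, while young mouse 2, with 7 and 9 cells, went from 3.45% in the first to 3.86% in the second. Within bands, aged mice 2 and 3 stood at 7.47% and 5.07% against 3.45% to 4.37% in 3 young mice at 0.4 to under 1%. They stood at 5.70% and 4.92% against 3.75% to 4.04% at 1 to under 4%, and at 3.59% and 3.76% against 2.97% and 2.55% in 2 young mice at 4% or more. The ages did not overlap in any of the 3 member bands (exact permutation tests, p = 0.1, 0.1 and 0.333, each the smallest possible). In the other cells the share was 7.55%, 9.22% and 5.94% in aged and 5.17%, 5.93% and 5.10% in young mice.

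**Figure D5:**
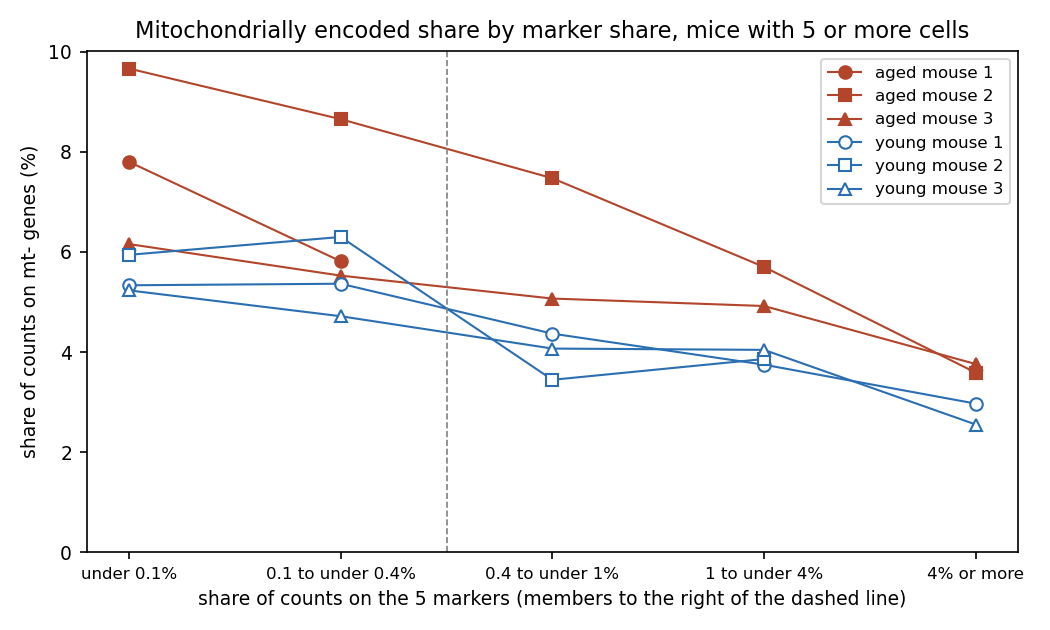
Share of counts on mt- genes (y axis, %) by share of counts on the 5 markers (x axis), 1 line per mouse with 5 or more cells in a band; the dashed line is the membership threshold. To its right, both aged lines lie above all young lines, from 7.47% and 5.07% in the first band to 3.59% and 3.76% in the last, and young mouse 2 is higher in the second member band than in the first.

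No single mitochondrial gene passed. Of 10 tested, 9 were above 0, the median was 0.63 (0.69 in the other cells) and 0 were called. mt-Nd2, a subunit of respiratory complex I, was at 4261, 4584 and 2641 CPM (aged) and 1706, 1697 and 2003 CPM (young), with a log2 difference of 0.99 (SE 0.25, edgeR adjusted p = 0.21). mt-Cytb, of complex III, was at 6246, 8519 and 4577 CPM in aged and 3535, 2909 and 3925 CPM in young mice, with a difference of 0.84 (SE 0.26, adjusted p = 0.44). Neither gene overlapped between the ages over 6 mice, as for 4.33% of 3833 genes in that direction. mt-Nd4, mt-Nd5, mt-Nd6 and mt-Nd1 differed by 0.70, 0.53, 0.77 and 0.60, also without overlap over 6 mice, and mt-Co1 by 0.65 with overlap. The mitochondrial ribosomal RNAs mt-Rnr1 and mt-Rnr2 differed by 0.21 and 0.37. The interaction of age with cell class ran from -0.17 to 0.13 for these genes (edgeR adjusted p = 1.0 for each), so a difference from the other cells was not detected. mt-Co2, mt-Co3, mt-Atp6 and mt-Nd3 had 0 counts in the members and could not be compared.

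Whether an age difference was particular to the members was tested as the interaction of age with cell class in edgeR, over 8649 genes. It called 7 genes (0.0809%), Slpi of the rule among them; 3 had a positive term (0.0347%) and 4 a negative one (0.0462%), and 442 (5.11%) were at an unadjusted p under 0.05. Over all 6 mice it called 0 of 7647, with 239 at an unadjusted p under 0.05, and DESeq2 called 0, with 91. Without aged mouse 2 none of the 7 remained past the threshold. The terms for H19, Defb4 and Slpi then changed sign, and their values are given in the closing section. The 4 genes called for age within members were not among the 7.

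Members of the 2 ages were sequenced to overlapping depths, at a mean over mice of 2580 median counts per cell ± 838 (SD) for the 3 aged and 2364 ± 511 for the 3 young mice (exact permutation test, p = 0.8). Over the 4 mice with 20 or more members the difference was -211 counts (exact permutation test, p = 1.0), and its sign changed when single mice were left out. At 1000 thinned counts, aged members had medians of 508, 537 and 539 genes and young members 526, 523 and 526. Over the 8 exact permutation tests of shares, mt- shares and depth given above, Benjamini-Hochberg adjustment took the raw p of 0.1 to 0.267, 0.333 to 0.533, 0.7 and 0.8 to 0.914, and left 1.0.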

How the data were processed

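The values used are the deposited raw counts, whole numbers by gene and by cell barcode, of 12 libraries. Per the submitters' processing notes they were made with UMI-tools 1.0.0, STAR 2.7, Subread 2.0.0 with featureCounts and Seurat on GRCm38; whether a count is a unique molecule is not given in the sources used here. Counts were summed over the 2 libraries of a mouse, which share barcodes, and cells were kept and chosen by the rule opening the report. Differences between ages were tested on counts summed per mouse (edgeR 4.0.16 quasi-likelihood, TMM, filterByExpr, Benjamini-Hochberg threshold 0.05; DESeq2 1.42.0 as alternative; R 4.3.3) or by exact permutation over mice (scipy 1.17.1). The design called for 3 against 3 mice with at least 20 members each, which left 2 against 2. Scrublet (scanpy 1.11.5) called 0.0% to 2.91% of barcodes per library and 5 members as doublets; they were kept, so doublets are only partly treated. The members and the 26 gene lists were chosen with earlier results of these data known. Genes named are the 30 highest and 10 lowest in members by log2 difference (50 CPM or more, same direction in 6 mice), genes called for age with up to 10 per direction by p, genes called for the interaction, list members, and the 10 highest and 10 lowest correlations. On simulated counts the age test recovered 78.6% of genes changed 4-fold and 11.5% changed 2-fold (4893 genes), and the interaction test 27.1% and 2.44% (8622 genes). False calls were 3 in the age test and 0 in the interaction test. All simulated mice shared 1 profile (1 per cell class for the interaction) and a fixed dispersion. No simulated mouse deviated as aged mouse 2 does, so these shares are not the power in the real data. Intervals and limits cover counting error only.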

Additional observations from a re-analysis of the deposited data

Results flagged for a closer look

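The 7 genes below were singled out because the test of the interaction (edgeR's quasi-likelihood test with Benjamini-Hochberg adjustment) gave a different age difference in superficial cells than in the other kept cells. The value is the log2 age difference in superficial cells minus that in the others, in aged mice 2 and 3 and young mice 1 and 3.

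H19, an imprinted non-coding RNA of growing tissue, had a term of 1.88 (SE 0.38, adjusted p = 0.011). In the other cells it was at 414.6, 628.7 and 602.0 CPM in aged and 1954, 1627 and 1594 CPM in young mice, and in superficial cells at 0.0, 208.5 and 12.7 CPM in aged and 119.2, 0.0 and 48.5 CPM in young mice. The aged mice were thus below the young ones in the other cells, while in superficial cells aged mouse 2 was the highest of all 6. Itga6, a hemidesmosomal integrin, had a term of 1.79 (adjusted p = 0.023), with 116.7, 133.7 and 55.2 CPM in aged and 19.5, 0.0 and 42.8 CPM in young superficial cells.

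Defb4 had a term of -2.38 (adjusted p = 0.011). Slpi had a term of -2.21, which is a description only, since its own counts helped to define the classes. Their levels in the other cells of aged mouse 2 were 42.8 and 137.7 CPM, against 0.746 to 10.2 CPM and 0.886 to 19.96 CPM in the other mice. Without aged mouse 2 the terms were -1.22 for H19, 2.33 for Defb4 and 2.31 for Slpi, all of the opposite sign and none called. Krt10 had a term of -2.13 (adjusted p = 0.023), and was at 58.4, 62.9 and 34.0 CPM in aged and 205.2, 88.2 and 85.6 CPM in young superficial cells. Without aged mouse 2 the term was -0.82 for Krt10 and 0.89 for Itga6, and neither was called.

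The remaining 2 rest on few counts. Lce3c, a late envelope gene, had a term of -6.30 (adjusted p = 0.023), with at most 4.38 CPM in the other cells of any mouse and 116 of its counts in the superficial cells of young mouse 3. Mthfd1, an enzyme of folate metabolism, had a term of 8.01 (adjusted p = 0.036) from 13 and 2 counts in superficial cells of aged mice 2 and 3 and 0 in those of young mice 1 and 3. As young levels of 0 make that term depend on the prior count, it is no measure of size. Without aged mouse 2 the terms were -4.89 for Lce3c and 6.48 for Mthfd1, and neither was called.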

How the results depend on the processing

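The difference in share of superficial cells changed sign with a marker threshold of 0.2% (0.458 points) and an mt limit of 10% (0.603), and ranged from -4.95 to 2.58 without single mice. The difference in median depth changed sign with thresholds of 0.8% (193 counts) and 1% (198.2, added), library 2 alone (23.5) and all mice (216.8, added), and ranged from -979.8 to 557.2 without single mice. The mt- share difference (1.74 points) kept its sign in all alternatives run, and was 1.02 without aged mouse 2 and 2.46 without aged mouse 3. The count of genes called for age was 4; it was 7 with all mice, 9 with library 1 alone, 26 with no filter on low counts, 1 at 0.2%, 2 at 0.2% without aged mouse 2 (added) and 7 at 0.8%, and 7 to 63 without single mice (aged mouse 2: 13; aged mouse 3: 63; young mouse 1: 15; young mouse 3: 7), where the lone mouse of a group is assumed to vary like the others. Deviations from the group means had correlations of -0.13, -0.12 and 0.07 over 2470 genes between samples with the same mouse number. With 3 mice per age, of which 2 had 5 and 17 members, this check cannot decide whether the numbers pair mice. With mouse number as replicate block over all mice 0 genes were called, with 36 at an unadjusted p under 0.05 in edgeR. The count for the interaction was 7; it was 0 with DESeq2, RLE scaling, all mice (added), at least 500 genes, library 1 alone, an mt limit of 10% and 0.2% without aged mouse 2 (added). It was 30 without doublet calls, 16 with library 2 alone, 19 with no filter, 29 at 0.2% and 0 to 92 without single mice (aged mouse 2: 0; aged mouse 3: 92; young mouse 3: 1). At 0.2% without aged mouse 2 the terms of H19, Defb4 and Slpi were -0.91, 1.84 and 1.77, and without single mice they ranged from -1.22 to 2.698, -4.29 to 2.33 and -3.81 to 2.31, with the H19 minimum and the Defb4 and Slpi maxima being those without aged mouse 2. Of 491 values of named genes under alternatives, 485 kept their direction. The genes were named for their direction or call in these mice, and the alternatives reuse the same counts, so this agreement is no separate support. The reversals were all in the interaction terms of H19, Defb4 and Slpi. Of the list medians 89 moved and 317 did not. The causes were not tested. Depth limits the 2 mice with 5 and 17 members, where a gene at 0 could have up to 3 counts.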
